A study of Homo sapiens with 6 samples.

Results

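The genes described here encode the lysosome: 18 acid hydrolases, 3 soluble cofactors or lipid carriers, 6 membrane proteins, 8 subunits of the proton pump and the 3 transcription factors TFEB, TFE3 and MITF. The 38 genes were taken by symbol from a list of known lysosomal components, and all 38 were found among the 19775 genes of the array table. They were measured in MCF10A cells, a human breast epithelial line that does not form tumours, at 6 plating densities of 50K, 100K, 200K, 400K, 600K and 800K cells per 35 mm dish (K, kilo). All dishes were kept for 24 h in the same medium. It held insulin at 10 μg/ml, EGF at 20 ng/ml, cholera toxin at 100 ng/ml, hydrocortisone at 0.5 μg/ml and 5% horse serum. Each density was read on 1 Affymetrix HG-U133 Plus 2 array from 200 ng of total RNA, so there is no replicate at any density. Because the RNA of many cells was pooled on each array, a change in the number of cells that make a transcript and a change per cell cannot be told apart. The same RNA amount was labelled for each array, so a change in total RNA per cell is not seen. There is no untreated group, and the lowest density served as the reference.

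The values are ratios to the 50K array. They give changes and no level, so no gene is compared here with another in abundance, and the labelled cell type could not be checked by marker levels. From 100K to 800K the median ratio of the arrays, control probe sets left out, was 1.013 to 1.036. The number of arrays limits the precision. Each gene was fitted with a line on log2 of the cells plated (limma, p-values adjusted over all 19775 genes). Its error is the distance of the 6 arrays from that line, which without replicates may be biological or technical. The slope is in log2 units per doubling of the cells plated, errors are standard errors, and "rose" or "fell" means an adjusted p under 0.05.

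Lysosomes are acidic compartments in which hydrolases break down proteins, glycans and lipids delivered by endocytosis and autophagy. Soluble hydrolases are sorted there mostly by mannose 6-phosphate tags, the V-ATPase pumps in protons at the cost of ATP, and heavily glycosylated membrane proteins such as LAMP1 and LAMP2 line the limiting membrane. TFEB, TFE3 and MITF are related basic helix-loop-helix leucine zipper factors. They can bind the E-box-containing CLEAR element found near many lysosomal genes, and they are held in the cytosol when the kinase complex mTORC1, which itself sits on the lysosome, phosphorylates them. Array data on mRNA do not read this control of localisation.

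Of the 38 genes, 9 rose with density, 3 fell and 26 did not pass the test. Those that rose were CTSD, CTSH, GAA, TPP1, LIPA, PSAP, GRN, SCARB2 and TFEB, and those that fell were GLA, PPT1 and MITF. The share called in either direction was 31.6% of the 38, beside 21.3% of all genes tested. The rising share was 23.7% against 8.93% of all genes, and the falling share 7.89% against 12.4%. All genes tested include many that these cells may not express, since ratios allow no filter on level. The median slope of the 38 was 0.017, against 0.004 for all genes, and their median size of slope without regard to sign was 0.072 against 0.033. The ratio at 800K was 2-fold or more from 50K for 5 genes (13.2%, against 4.94% of all genes), namely CTSD, GAA and GRN above and GLA and MITF below.

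**Figure D1:**
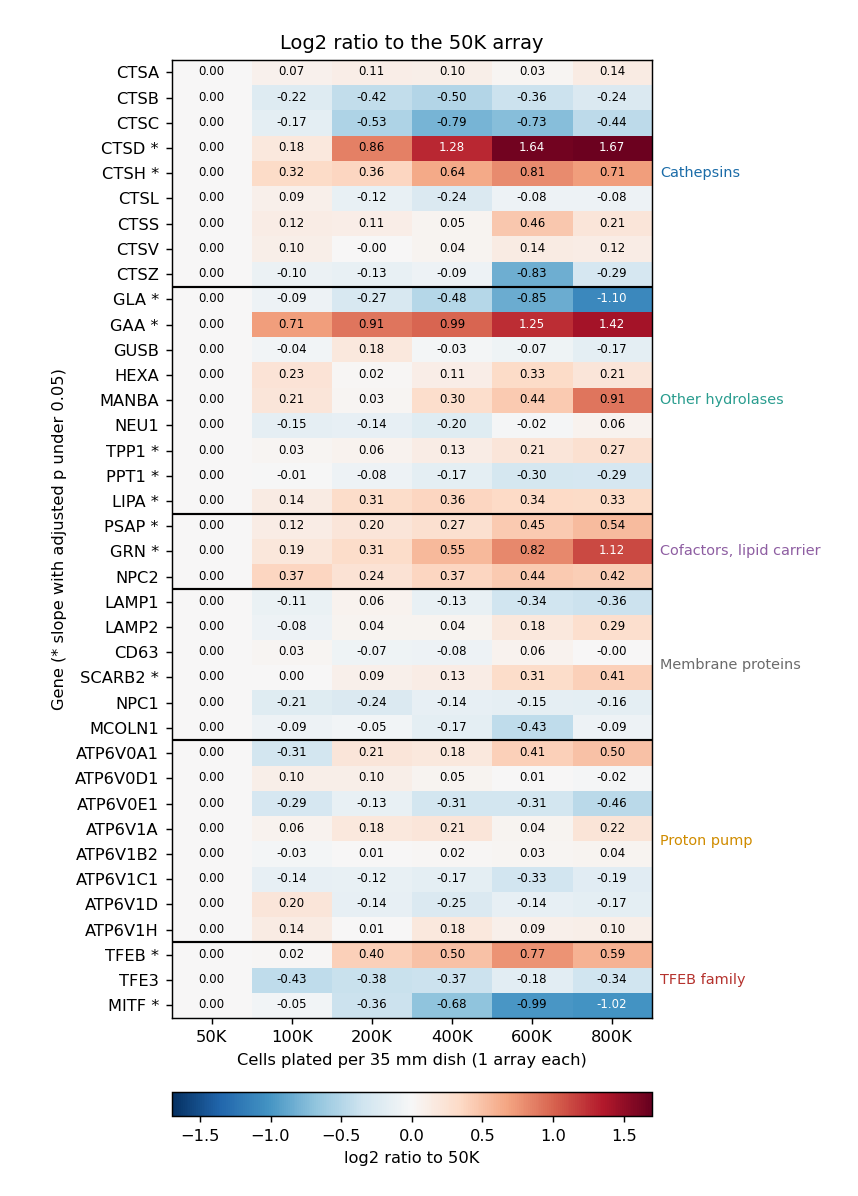
Log2 ratio of each of the 38 lysosomal genes to the 50K array (colour and number), with arrays in columns by cells plated and genes in rows by role; an asterisk marks a slope with an adjusted p under 0.05. Strong colour is limited to a few rows, from 1.67 for CTSD to -1.10 for GLA at 800K, while the 8 pump subunits stay between -0.46 and 0.50.

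The order of the arrays, taken from the same values without a fit, again gave larger rising shares than over all genes. The falling shares by order were above those of all genes, whereas by slope the falling share was below. Along the 6 densities 6 of the 38 genes rose at every step (CTSD, GAA, TPP1, PSAP, GRN and SCARB2), which is 15.8% beside 2.93% of all genes, and 2 fell at every step (GLA and MITF), which is 5.26% beside 3.53%. These orders are those of the gene means. No probe set of TPP1 rose at every step alone. For SCARB2 only 201646_at did, and for MITF only 207233_s_at fell at every step. The 3 densest arrays lay wholly above the 3 sparsest for 12 genes (31.6%, against 13.8% of all genes) and wholly below for 8 genes (21.1%, against 17.9%). From 50K to 200K and from 200K to 800K the cell number doubles equally often. The change was larger in size over the dense interval for 21 of the 38 genes (55.3%, against 49.3% of all genes) and for 7 of the 12 called genes. No gene passed the test for curvature in limma, neither among the 38 nor among all genes (0% called). With 3 residual degrees of freedom and no gene called at all, it cannot show that a peak or dip is absent. At an unadjusted p under 0.05, 6 of the 38 (CTSB, GLA, NEU1, LIPA, GRN and SCARB2) and 12.6% of all genes had a quadratic term, and no other tool was run for curvature. With the 3 sparsest arrays set against the 3 densest in place of a slope, CTSD, CTSH, PPT1 and MITF still passed, and the other 8 called genes did not (adjusted p from 0.0504 to 0.173).

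The promoters of these genes are shown because the TFEB family is itself in the list and some of its members changed. RefSeq windows of 300 bases, from 250 bases before to 50 after a start site on GRCh38.p14, were found for 27 of the 38 genes, in 41 windows. The 6-letter E-box core CACGTG and the 8-letter form TCACGTGA, which contains it, each read the same on both strands. The core was found in 8 of the 41 windows (19.5%), against 7.26% of all 35116 windows and 8.36% of the 21490 windows of genes tested. The 8-letter form was in 5 of the 41 (12.2%), against 0.98% of all windows and 1.28% of those of genes tested. It is the centre of the CLEAR element, which is known from near many lysosomal genes. A higher share in a list of lysosomal genes was thus foreseeable and carries no information on density. The GC content of the lysosomal windows was 66.6%, against 61.2% for the genes tested, and its part in these shares was not tested. The stretches below end just before the start site, 5′ to 3′ on the strand of the gene, with each CACGTG in capitals. They lie at chr17:80101481-80101580 (GAA, plus strand), chr11:1763928-1764027 (CTSD, minus), chr20:45891235-45891334 (CTSA, plus), chr19:7522524-7522623 (MCOLN1, plus), chr16:67481158-67481257 (ATP6V0D1, minus) and chr13:113297039-113297238 (LAMP1, plus).
GAA: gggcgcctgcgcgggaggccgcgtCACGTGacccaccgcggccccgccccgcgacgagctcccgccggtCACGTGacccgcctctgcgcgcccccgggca
CTSD: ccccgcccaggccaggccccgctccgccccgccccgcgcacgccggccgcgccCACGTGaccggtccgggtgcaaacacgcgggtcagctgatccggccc
CTSA: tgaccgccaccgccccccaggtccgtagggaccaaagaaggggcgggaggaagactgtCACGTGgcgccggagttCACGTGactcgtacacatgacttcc
MCOLN1: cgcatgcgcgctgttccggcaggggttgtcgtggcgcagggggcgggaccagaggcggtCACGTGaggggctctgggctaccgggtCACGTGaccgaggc
ATP6V0D1: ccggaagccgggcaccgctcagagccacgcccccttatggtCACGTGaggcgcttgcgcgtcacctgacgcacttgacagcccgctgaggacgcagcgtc
LAMP1: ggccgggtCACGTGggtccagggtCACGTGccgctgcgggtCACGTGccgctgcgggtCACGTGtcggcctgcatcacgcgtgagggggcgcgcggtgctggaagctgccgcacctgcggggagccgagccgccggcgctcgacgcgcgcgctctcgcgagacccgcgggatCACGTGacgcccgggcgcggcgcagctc

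These stretches, chosen from the 8 genes with a core, include promoters of genes that rose and of genes that did not pass. CD63 and NEU1 are not shown. Their slopes did not pass, and their cores, at -180 and -126, lie outside the 8-letter form. GAA, which rose, has the 8-letter form beginning 1 base before each of its 2 cores, at -76 and -31 from the start site, and CTSD, which rose, has a single core at -47. CTSA, MCOLN1, ATP6V0D1 and LAMP1, whose slopes did not pass, have between 1 and 6 cores. LAMP1 has the most, of which 5 lie in the stretch shown and the sixth spans the start site. Among genes with a window the core was found for 2 of 8 that rose, 0 of 3 that fell and 6 of 16 that did not pass. Counted by gene, it was found for 8 of 27 lysosomal genes (29.6%), against 10.9% of genes tested with a window. No core was found in the windows of GRN, CTSH, SCARB2, TPP1, LIPA or TFEB, which says only that these letters are not in those windows. A match is a description of the sequence and not evidence of binding.

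**Figure D2:**
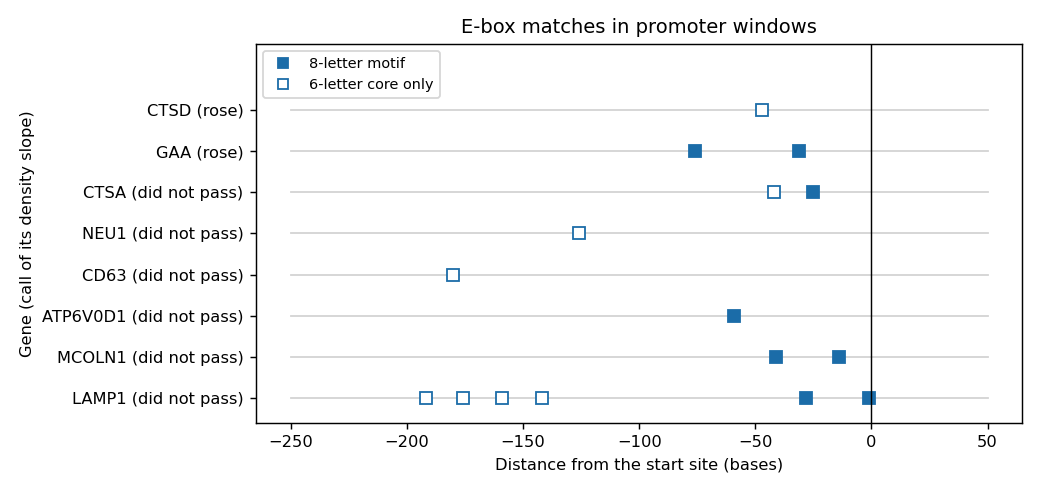
Positions of E-box cores (squares, filled where the core lies in the 8-letter form) by distance in bases from the start site, for the 8 lysosomal genes with a match; genes are ordered by slope from the highest at the top. GAA and CTSD rose with density, and the other 6, including LAMP1 with 6 cores, did not pass the test.

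Of the 9 cathepsins, the proteases of the lysosome, 2 rose and 7 did not pass, a called share of 22.2% that is close to the 21.3% of all genes. CTSD, the main aspartic protease of the lysosome, had ratios of 1.13, 1.82, 2.42, 3.11 and 3.18 at 100K, 200K, 400K, 600K and 800K. It was higher at every step and 3.18-fold above 50K at the highest density. Its slope of 0.46 ± 0.03 was the steepest of the 38 (adjusted p = 0.000881, and up to 0.00665 when any single array was left out). CTSH, a cysteine aminopeptidase, had ratios of 1.25, 1.29, 1.55, 1.75 and 1.63. The 3 dense arrays were all above the 3 sparse ones, and the highest value was at 600K (slope 0.19 ± 0.02, adjusted p = 0.00485, up to 0.0352 with 1 array left out).

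CTSC, the dipeptidyl peptidase that activates serine proteases of leukocytes, and CTSB, an abundant cysteine protease, were lowest in the middle of the range. The ratios of CTSC were 0.892, 0.692, 0.576, 0.603 and 0.736, and those of CTSB 0.857, 0.747, 0.708, 0.78 and 0.845. By gene mean, both were lowest at 400K and nearer to 50K again at 800K. The probe sets of CTSC differed in this. Those numbered 201487_at and 225647_s_at were lowest at 600K (0.605 and 0.547) and at 0.617 and 0.657 at 800K. The lowest values of 225646_at and 231234_at were at 400K (0.466 and 0.644). Neither passed the slope test (slope -0.16 ± 0.05, adjusted p = 0.0678 for CTSC; slope -0.07 ± 0.04, adjusted p = 0.258 for CTSB), and neither passed that of curvature (quadratic term 0.29, adjusted p = 0.451 for CTSC and 0.29, adjusted p = 0.182 for CTSB). CTSC passed without the 800K array (slope -0.23, adjusted p = 0.0151), with the median of its probe sets (-0.18, adjusted p = 0.0286) and when only genes with a log2 span of 0.2 or more were tested (adjusted p = 0.0271).

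The other 5 cathepsins stayed closer to 1 or moved on single arrays. CTSL and CTSV are closely related cysteine proteases that degrade elastin and other proteins. The ratios of CTSL lay between 0.847 and 1.06 and those of CTSV between 0.997 and 1.1. CTSA, the carboxypeptidase that also protects the sialidase NEU1, ranged from 1.02 to 1.1. CTSZ had ratios of 0.934, 0.915, 0.936, 0.562 and 0.816, so its lowest value was that of the 600K array alone, and CTSS, best known from antigen-presenting cells, was highest on the same array (1.37, against 1.03 at 400K and 1.16 at 800K). None of the 5 had an adjusted p under 0.236. For 17 of the 38 genes (44.7%) the 600K value was outside the range of 400K and 800K, as it was for 60.2% of all genes.

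Among the 9 remaining hydrolases 3 rose, 2 fell and 4 did not pass (55.6% called, against 21.3% of all genes). Enzymes of the same compartment thus changed in opposite directions. GAA, the acid alpha-glucosidase that degrades glycogen, had ratios of 1.63, 1.88, 1.99, 2.38 and 2.68. Its largest step was the sparsest one, from 50K to 100K, and it rose further at each density (slope 0.31 ± 0.04, adjusted p = 0.00556, up to 0.0259 with 1 array left out). GLA, the alpha-galactosidase that removes terminal galactose from glycolipids, had ratios of 0.94, 0.827, 0.716, 0.554 and 0.466. It was lower at every step and 2.14-fold lower at 800K than at 50K (slope -0.27 ± 0.04, adjusted p = 0.00735, up to 0.0327 with 1 array left out). For GAA the log2 change was 0.91 from 50K to 200K and 0.51 from 200K to 800K. For GLA it was -0.27 and then -0.83.

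The other called hydrolases moved little. TPP1, a tripeptidyl peptidase, had ratios of 1.02, 1.04, 1.09, 1.16 and 1.21 (slope 0.07 ± 0.01, adjusted p = 0.0232). LIPA, the acid lipase that frees cholesterol from its esters, had ratios of 1.1, 1.24, 1.29, 1.26 and 1.26, a plateau from 400K on (slope 0.09 ± 0.02, adjusted p = 0.024). PPT1, a thioesterase that removes palmitate from proteins, had ratios of 0.993, 0.944, 0.887, 0.813 and 0.821 (slope -0.08 ± 0.01, adjusted p = 0.0146). These 3 calls depended on single arrays. That of TPP1 had an adjusted p of 0.0559 without 100K, 0.0763 without 600K and 0.107 without 800K, that of LIPA 0.168 without 50K, 0.0648 without 100K and 0.0663 without 600K, and that of PPT1 0.0633 without 800K. LIPA also missed the threshold with density on the linear scale (0.141) or by rank (0.0509), and TPP1 with the span filter (0.0853).

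Of the 4 hydrolases that did not pass, MANBA, a beta-mannosidase, reached the highest ratio. Its values were 1.16, 1.02, 1.23, 1.35 and 1.88, with most of the difference at 800K (slope 0.17 ± 0.05, adjusted p = 0.0672), and it passed when density was taken on the linear scale (adjusted p = 0.0103) or by rank (0.0253) and with the span filter (0.0252). The beta-hexosaminidase subunit HEXA lay between 1.01 and 1.26, the sialidase NEU1 between 0.873 and 1.04, and the beta-glucuronidase GUSB between 0.888 and 1.13. The lowest adjusted p of the 3 was 0.357.

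Of the 3 soluble cofactors and lipid carriers, PSAP and GRN rose and NPC2 did not pass (66.7% called, against 21.3% of all genes). PSAP, the precursor of the saposins that present sphingolipids to hydrolases, had ratios of 1.09, 1.15, 1.21, 1.37 and 1.45, and GRN, the precursor of the granulins, had 1.14, 1.24, 1.47, 1.76 and 2.17. Both were higher at every step, and GRN was 2.17-fold above 50K at 800K. The slopes were 0.13 ± 0.02 for PSAP (adjusted p = 0.00631) and 0.26 ± 0.03 for GRN (adjusted p = 0.00518), and both stayed under 0.05 with any single array left out (up to 0.0304 and 0.024). NPC2, the soluble protein that hands cholesterol to NPC1, had ratios of 1.29, 1.18, 1.3, 1.36 and 1.33. It was above 50K on every other array but changed little among them, and its slope did not pass (0.09 ± 0.03, adjusted p = 0.0783), except without the 100K array (0.11, adjusted p = 0.0156).

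**Figure D3:**
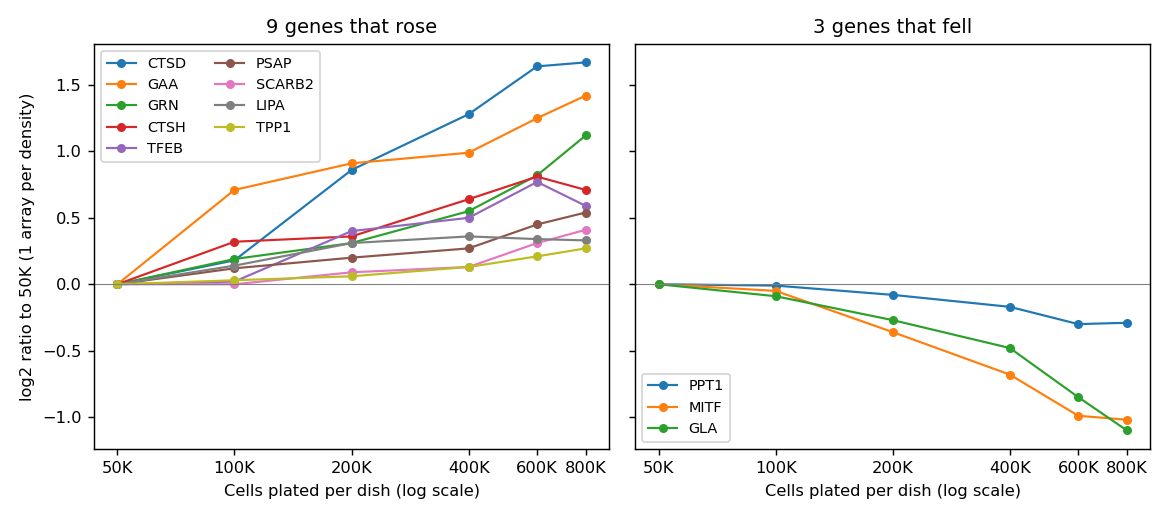
Log2 ratio to 50K against cells plated (log scale) for the 9 lysosomal genes that rose (left) and the 3 that fell (right), with 1 point per array and no error bars because no density has a replicate. CTSD and GAA end at 1.67 and 1.42 and GLA and MITF at -1.10 and -1.02, while TPP1, LIPA and PPT1 stay between -0.30 and 0.36.

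Of the 6 membrane proteins 1 rose and 5 did not pass (16.7% called, against 21.3% of all genes). SCARB2, the receptor that carries beta-glucocerebrosidase to the lysosome, had ratios of 1, 1.06, 1.09, 1.24 and 1.33. Most of its change came at 600K and 800K (slope 0.10 ± 0.02, adjusted p = 0.0244), and the adjusted p was 0.0716 without 100K, 0.0799 without 600K and 0.0953 without 800K. The abundant glycoproteins LAMP1 and LAMP2 ended on opposite sides of 1. LAMP1 had ratios of 0.928, 1.04, 0.915, 0.789 and 0.779, and LAMP2, which also serves as a receptor in chaperone-mediated autophagy, had 0.948, 1.03, 1.03, 1.13 and 1.22. Neither passed (slope -0.09 ± 0.03, adjusted p = 0.102, and slope 0.07 ± 0.02, adjusted p = 0.0773). With density on the linear scale both passed (adjusted p = 0.0296 for LAMP1 and 0.0161 for LAMP2), and LAMP2 also passed by rank (0.0359). The tetraspanin CD63, a marker of late endosomes and exosomes, lay between 0.944 and 1.04, the cholesterol exporter NPC1 between 0.844 and 0.906 on the 5 denser arrays, and the calcium channel MCOLN1 between 0.744 and 0.966. The 95% intervals of the fitted log2 change from 50K to 800K were -0.18 to 0.18 for CD63, -0.31 to 0.14 for NPC1 and -0.57 to 0.09 for MCOLN1.

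None of the 8 proton pump subunits passed the slope test in limma, against 21.3% of all genes. At an unadjusted p under 0.05 there were 3, namely ATP6V0A1, ATP6V0E1 and ATP6V1C1. Of all 19775 genes, 2847 had a rising and 3622 a falling slope at that unadjusted level, so such slopes were common over all genes. The V-ATPase has a membrane sector, V0, through which protons pass, and a peripheral sector, V1, that splits ATP. Of the V0 subunits, ATP6V0A1 had ratios of 0.807, 1.16, 1.13, 1.33 and 1.41 (slope 0.15 ± 0.04, adjusted p = 0.0591), ATP6V0E1 had 0.815, 0.915, 0.808, 0.806 and 0.725 (slope -0.09 ± 0.03, adjusted p = 0.0741), and ATP6V0D1 lay between 0.985 and 1.07. The gene mean of the a1 subunit thus ended above and that of the e1 subunit below the 50K level, though neither slope passed. ATP6V0A1 passed on all 6 arrays with density on the linear scale (adjusted p = 0.0356), by rank (0.0428) and with the span filter (0.0251), and also without 50K (slope 0.24, adjusted p = 0.0312). ATP6V0E1 passed without 100K (slope -0.11, adjusted p = 0.0286). With the median of its 7 probe sets its slope was -0.04 (adjusted p = 0.281). The lowest of these probe sets at 800K was 201171_at, with a ratio of 0.246.

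The 5 V1 subunits had ratios between 0.794 and 1.17, and ATP6V1C1 was below 50K on all other arrays. ATP6V1A, the catalytic subunit, lay between 1.03 and 1.17, the nucleotide-binding ATP6V1B2 between 0.979 and 1.03, ATP6V1C1, which links the sectors, between 0.794 and 0.918, the stalk subunit ATP6V1D between 0.844 and 1.15, and the regulatory ATP6V1H between 1.01 and 1.13. The interval of the fitted log2 change over the range was narrowest for ATP6V1B2, from -0.06 to 0.17. For ATP6V1C1 it was -0.42 to -0.04 (adjusted p = 0.0945), and 202874_s_at, 1 of its 4 probe sets, fell when tested alone (slope -0.10 ± 0.01, adjusted p = 0.00956 over all probe sets). At 800K the median log2 ratio of the 8 pump subunits was 0.01, that of the 6 membrane proteins -0.05, that of the 18 hydrolases 0.13 and that of the 3 cofactors and carriers 0.54, against 0.03 for all genes. These medians are a description, and the differences between the groups were not tested.

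**Figure D4:**
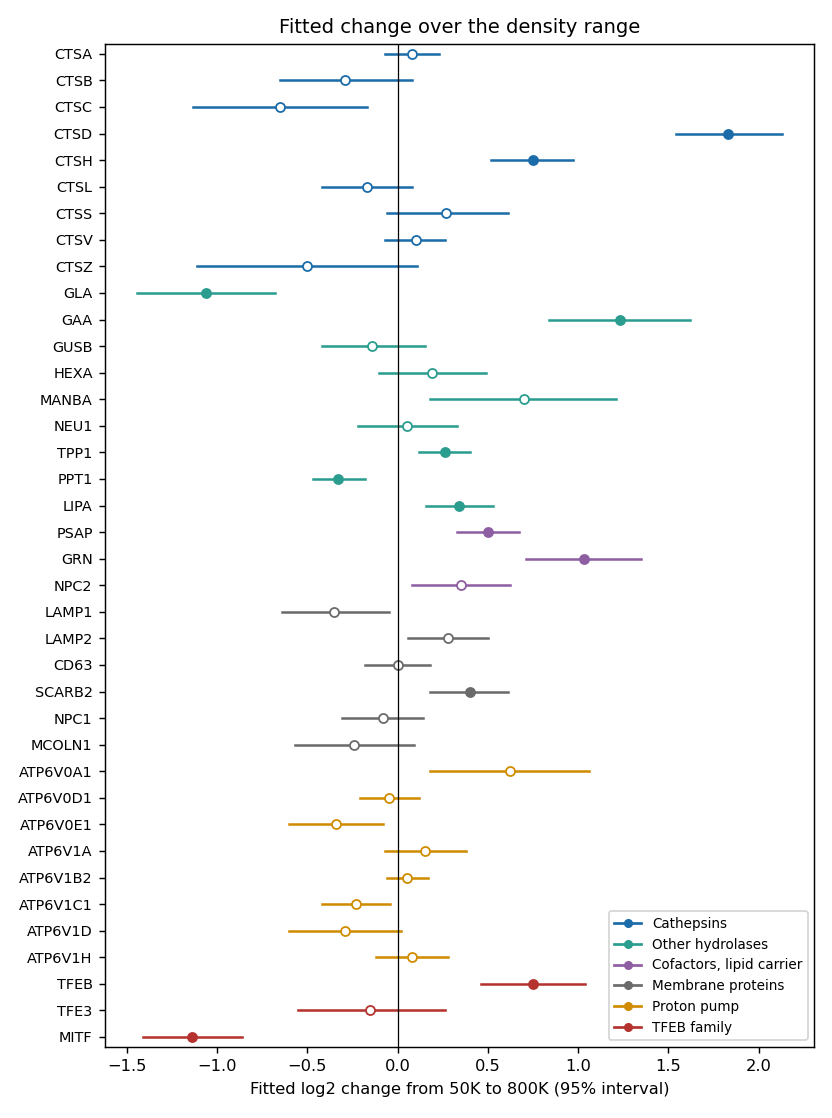
Fitted log2 change from 50K to 800K for each of the 38 lysosomal genes, with its 95% interval from the limma fit (lines), coloured by role; filled points passed the test after adjustment. CTSD, GAA and GRN lie farthest above 0 and MITF and GLA farthest below, and none of the 8 pump subunits has a filled point.

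Of the 3 factors of the TFEB family 1 rose, 1 fell and 1 did not pass (66.7% called, against 21.3% of all genes). TFEB had ratios of 1.02, 1.32, 1.41, 1.7 and 1.5 and rose (slope 0.19 ± 0.03, adjusted p = 0.00892, up to 0.0407 with 1 array left out). MITF, known as the master regulator of melanocytes, had ratios of 0.969, 0.777, 0.626, 0.502 and 0.492 and fell at every step (slope -0.28 ± 0.03, adjusted p = 0.00265, up to 0.0151 with 1 array left out). TFE3 was below 50K on all other arrays, with ratios of 0.744, 0.769, 0.774, 0.885 and 0.793, but showed no order among them (slope -0.04 ± 0.04, adjusted p = 0.656).

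Several genes are the mean of probe sets that did not move alike, so the probe sets were also tested alone over all 54613. The 38 genes have 93 probe sets, of which 13 rose and 7 fell (21.5%, against 13.9% of all probe sets), and 15 genes have a single probe set. Of the 7 called genes with several, 6 had all probe sets on the same side of 0; the exception was MITF. For MITF, 226066_at and 207233_s_at had slopes of -0.46 and -0.44 and ratios of 0.313 and 0.31 at 800K, while 1554874_at had a slope of 0.05 and a ratio of 1.23. The mean of the gene therefore understates the change seen by the pair that fell. For TFEB, 50221_at had a slope of 0.28 ± 0.02 (adjusted p = 0.00212) and a ratio of 2.05 at 800K, and 221866_at a slope of 0.10 ± 0.04 (adjusted p = 0.245) and a ratio of 1.11. For LIPA, 201847_at had a slope of 0.17 (ratio 1.55 at 800K) and 236156_at a slope of 0.01 (ratio 1.03). The rise of TPP1 passed in 214196_s_at alone of its 4 probe sets and that of SCARB2 in 224983_at alone of 4. All 3 probe sets of GRN and both of PSAP passed.

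**Figure D5:**
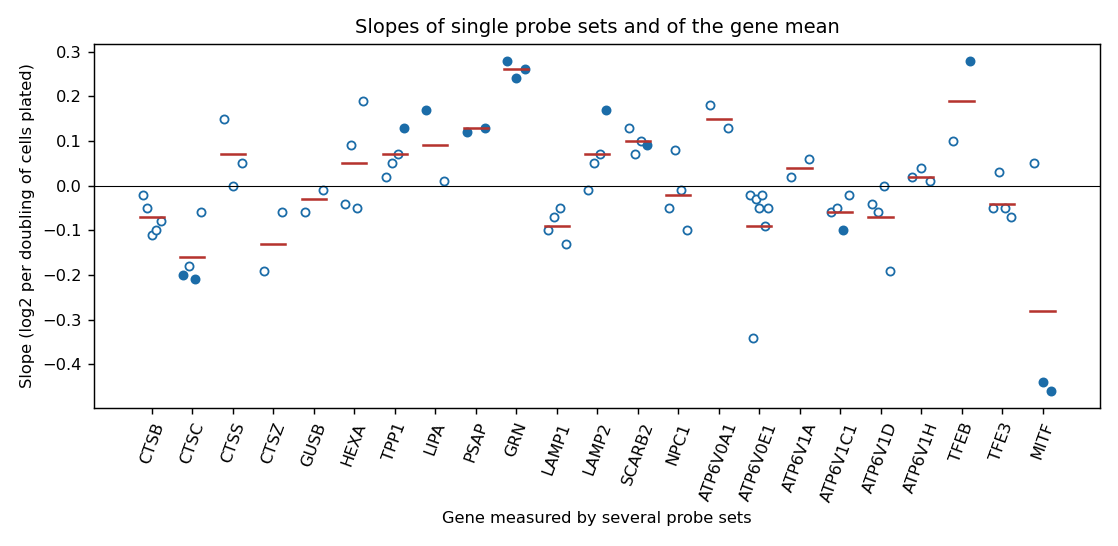
Slope of each probe set (points, filled where the adjusted p over all probe sets is under 0.05) and of the gene mean (red bars) for the 23 lysosomal genes with several probe sets, in log2 units per doubling of the cells plated. The points of GRN and PSAP lie close together, whereas MITF has points at -0.46, -0.44 and 0.05 and ATP6V0E1 has a single point at -0.34.

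Genes of the wider lysosomal pathway were read from 8 further lists of known components. Of their 182 genes measured, 35 rose and 21 fell (30.8% called, against 21.3% of all genes). Of 28 further lysosomal hydrolases and their activators measured, 6 rose, 1 fell and 21 did not pass (25% called). In that list 7 genes were not analysed here. GM2A, the activator that lifts GM2 ganglioside for hexosaminidase, was 2.24-fold above 50K at 800K (slope 0.27 ± 0.04), the acid nuclease DNASE2 1.66-fold (0.22 ± 0.03) and the carboxypeptidase SCPEP1 1.64-fold (0.18 ± 0.02), with adjusted p between 0.00359 and 0.00726. Of 25 further membrane proteins 6 rose and 5 fell (44% called). LAPTM5, a lysosomal protein best known from blood cells, had ratios of 2.01, 2.91, 4.06, 9.7 and 14 (slope 0.89 ± 0.09, adjusted p = 0.00251), the sialic acid exporter SLC17A5 rose (0.21 ± 0.04, adjusted p = 0.0172) and the cystine exporter CTNS fell (-0.20 ± 0.04, adjusted p = 0.0276). Of 21 other V-ATPase subunits and assembly factors 2 rose and 3 fell (23.8% called, close to the 21.3% of all genes). The called genes included the proteolipid ATP6V0B (-0.16 ± 0.03, adjusted p = 0.00864) and TCIRG1, the a3 subunit (-0.11 ± 0.01, adjusted p = 0.00675), which fell, and the assembly factor VMA22 (0.19 ± 0.04, adjusted p = 0.0196), which rose. The calls were lost without single arrays for SLC17A5 (adjusted p up to 0.0679, without 100K or 800K), CTNS (up to 0.109, without any but 50K or 200K) and VMA22 (up to 0.0703, without 50K, 100K, 600K or 800K).

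Lists for the sorting and inhibition of hydrolases were short. Of 13 genes of mannose 6-phosphate sorting, 2 rose and 3 fell (38.5% called, against 21.3% of all genes). The epithelial clathrin adaptor AP1M2 rose (slope 0.21 ± 0.02, adjusted p = 0.00275), as did the sorting receptor SORL1 (0.12 ± 0.03, adjusted p = 0.0311), and the adaptor GGA2 fell (-0.14 ± 0.03, adjusted p = 0.0267). Of 12 cystatins and other inhibitors of cathepsins 3 rose and 1 fell (33.3% called). SERPINB13, a serpin that inhibits cysteine cathepsins, was 3.28-fold above 50K at 800K (0.44 ± 0.02, adjusted p = 0.000605), the epidermal cystatin CSTA 2.73-fold (0.38 ± 0.05, adjusted p = 0.00452) and the secreted cystatin CST3 2.00-fold (0.26 ± 0.06, adjusted p = 0.0343), while CST6 was the member that fell (-0.23 ± 0.02, adjusted p = 0.00101). Calls lost with 1 array left out were those of SORL1 (up to 0.102, without 400K, 600K or 800K), GGA2 (up to 0.108) and CST3 (up to 0.131), the last pair without 50K, 100K, 600K or 800K.

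Of 29 genes of mTORC1 and TFEB regulation 5 rose, 3 fell and 21 did not pass (27.6% called, against 21.3% of all genes). CASTOR1, an arginine sensor upstream of mTORC1, had a slope of 0.51 ± 0.11 (adjusted p = 0.0219), LAMTOR2, a subunit of the Ragulator scaffold on the lysosome, 0.21 ± 0.01 (adjusted p = 0.000771), and PPP3R1, the regulatory subunit of calcineurin, which dephosphorylates TFEB, -0.20 ± 0.03 (adjusted p = 0.0116). Of 31 autophagy genes 8 rose and 5 fell (41.9% called). The initiating kinase ULK1 was 2.33-fold above 50K at 800K (0.31 ± 0.04, adjusted p = 0.0068), the membrane protein VMP1 1.71-fold (0.24 ± 0.04, adjusted p = 0.00813) and GABARAP, of the ATG8 family, 1.62-fold (0.16 ± 0.03, adjusted p = 0.0127). Of the 5 that fell, ATG5 (-0.14 ± 0.02, adjusted p = 0.00391) and TMEM41B (-0.14 ± 0.02, adjusted p = 0.0056) kept the call without each array. Of 23 genes of endosome and lysosome fusion and transport 3 rose and 20 did not pass (13% called). Those that rose were FIG4 (0.19 ± 0.04), RAB9A (0.15 ± 0.03) and VAMP8 (0.07 ± 0.02), with adjusted p between 0.0251 and 0.0303. All 3 were lost without 600K or 800K, FIG4 and RAB9A also without 100K, FIG4 without 400K and VAMP8 without 50K (up to 0.137). CASTOR1 was lost without 100K, 600K or 800K (up to 0.0881), and PPP3R1 and GABARAP without 50K or 800K (up to 0.0641 and 0.0743).

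Markers of other cell types were read beside these results. Of 10 leukocyte and macrophage markers 2 rose (LAPTM5 and CD14, the latter 5.66-fold above 50K at 800K with a slope of 0.74 ± 0.08, adjusted p = 0.00355), 1 fell (ITGB2) and 7 did not pass. The mean ratio of the 10 markers was between 1 and 2.74 on the 6 arrays. The defining marker PTPRC had ratios between 0.996 and 1.07, and CSF1R, CD74, HLA-DRA, TYROBP, AIF1 and FCER1G lay between 0.882 and 1.14. None of 5 melanocyte markers passed in limma (1, TYR, at an unadjusted p under 0.05; mean ratio 1 to 1.05), and of 7 fibroblast markers DCN alone rose (mean ratio 1 to 1.09). Of 8 markers of mammary epithelium KRT14, CDH1 and KRT5 rose and ITGA6 fell. The called share was 30% for leukocyte and macrophage, 0% for melanocyte, 14.3% for fibroblast and 50% for mammary markers, against 21.3% of all genes. The ITGB2 call was lost without 600K or 800K (adjusted p up to 0.0708), and those of DCN and ITGA6 were lost without 5 of the 6 arrays. The part of other cells in the lysosomal values was not tested.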

How the data were processed

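Total RNA of MCF10A cells was hybridised to 6 arrays, 1 per density; the labels gave the density. RMA is named, with no version, in the submitters' processing notes. The deposited values are linear ratios: the 50K column is 1 for all 54675 probe sets (tolerance 1e-06), and the others lie between 0.0292 and 98.5. The sources used here do not give how the authors formed the ratio. A fall into array background would be understated, and signal over background is unknown.

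The log2 of each ratio was averaged over the 41091 non-control probe sets with 1 gene symbol, giving 19775 genes; 1801 probe sets with several symbols and the remaining 11783, which have no symbol listed or are among the 62 controls, were left out. RefSeq identifiers matched 41037 of the 41091. Slopes and quadratic terms were tested two-sided with lmFit and eBayes of limma 3.58.1 (R 4.3.3), with 4 and 3 residual degrees of freedom. P-values were adjusted by Benjamini-Hochberg over every gene, and the threshold was 0.05. Intervals are at 95% from the moderated variance. The fits were tested on simulated data with independent errors, which do not cover an error shared by the genes of an array.

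The genes, lists and tests were chosen with earlier results of these data known. All 38 genes are named, and from each other list up to 3 called genes with the largest slopes that kept their sign without each array. CST6, ATG5, TMEM41B, the called markers ITGA6 and DCN, and the unchanged markers were also named. Alternatives were other averaging of probe sets, centring, other scales of density, robust variances, a filter on span and leaving out each array. Promoters are from RefSeq on GRCh38.p14. TATAAA was most often found at -30 and -29 on the plus and minus strand, so each window was read along its gene.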

Additional observations from a re-analysis of the deposited data

How the results depend on the processing

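With 1 array left out, between 6 and 9 lysosomal genes rose and 3 or 4 fell, against 9 and 3 with all 6 arrays, and between 2388 and 3909 of all genes were called, against 4220. The fewest genes were called without the 800K array (2388) and the 600K array (2447). Without probe sets prone to cross-hybridisation (_x_at and _s_at) 5 lysosomal genes rose, and 2664 of all genes were called. CTSH, PSAP and GRN, which rose, have only such probe sets and drop out, as do CTSL, CTSZ and MCOLN1, and TPP1 no longer passed (adjusted p = 0.193). With the 3 sparsest arrays set against the 3 densest, 2 rose (CTSD and CTSH) and 2259 of all genes were called. There GAA had an adjusted p of 0.141, GLA 0.0512 and GRN 0.0504. On the linear scale 11 rose and 4 fell, and by rank of density 11 rose and 3 fell. When only genes with a log2 span of 0.2 or more were tested, a filter that selects on change, 10 rose and 4 fell: CTSC, MANBA and ATP6V0A1 passed and TPP1 did not (adjusted p = 0.0853). Centring, robust variances and the median of probe sets left 9 rising. No lysosomal gene passed the curvature test with arrays centred or with 1 array left out. Of 165 slopes of the 12 called genes under the alternatives, 143 kept their call, 22 lost it and 0 changed sign. Of the 355 slopes of uncalled genes, 15 passed and 10 changed sign, none of the latter past the threshold. Those that changed sign were CD63 (0.006 on the linear scale, 0.002 by rank and 0.002 for 3 against 3 arrays, -0.012 to 0.006 with 1 array left out), NPC1 (5.9e-05 for 3 against 3, -0.034 to 0.027 with 1 array left out), NEU1 (-0.014 to 0.060) and TFE3 (-0.066 to 0.053), the last pair with 1 array left out. The causes of these differences were not tested beyond the genes that drop out. No paired analysis was possible because each density has 1 array.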

Other observations

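Some probe sets of a gene that did not pass moved far from the others of the same gene. For ATP6V0E1, 201171_at had ratios of 0.42, 0.526, 0.435, 0.451 and 0.246 from 100K to 800K, while the other 6 probe sets lay between 0.658 and 1.11; its slope was -0.34 ± 0.11 (adjusted p = 0.102 over all probe sets). For LAMP2, 226671_at rose to 1.58 at 800K (slope 0.17 ± 0.03, adjusted p = 0.0149), and 200821_at lay between 0.814 and 0.922 on the 5 denser arrays. For CTSC, 201487_at and 225647_s_at fell (slopes -0.20 and -0.21, adjusted p = 0.00515 and 0.0354), whereas 231234_at returned to 0.983 at 800K after 0.644 at 400K. For HEXA, 243511_at was at 2.2 on the 600K array and at 1.17 and 1.32 on its neighbours. Which transcripts each probe set reads was not analysed here.

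The low 600K value of CTSZ was present in both of its probe sets, with ratios of 0.426 and 0.742 at 600K against 0.684 and 0.974 at 800K. With no replicate of that density it could not be tested.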
